A study of Mus musculus with 8 samples.

Results

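The fibroblast growth factor (FGF) genes of the mouse were followed here in Thy1+ testis cells of wild type and Glis3-deficient pups: the ligands, the receptors and the inhibitors that FGF signalling itself induces. Members were chosen by symbol, as every numbered Fgf, Fgfr, Spry and Spred gene together with Fgfrl1, Dusp4 and Dusp6. The gene table held 36 such genes, and 35 of them had a probe among the 19096 genes named on the array, with 60 probes in all. Fgf4 had no named probe. Probes counted as measured when 4 or more of the 8 arrays gave a signal well above background, which left 32 members with 56 probes.

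The series compared gene expression between C57BL/6 pups labelled wild type (WT, 4 arrays) and Glis3KO2 (4 arrays) at postnatal day 4. Glis3 encodes a Krüppel-like zinc finger transcription factor, and titles of the mutant samples write the genotype as Glis3KO. Undifferentiated spermatogonia are enriched by the surface protein Thy1, and the labels call the sorted cells spermatogonial progenitors. The animals were untreated and total RNA was amplified before it was labelled with Cy3 and hybridised to 1-colour Agilent arrays. The allele, its promoter and the region it removes were not given in the sources used here. The series description speaks of 3 testes of each genotype, fewer than the 4 labelled samples, and nothing says that the samples came from separate animals, so that p-values here measure only the spread between these samples. Values below are log2 signals relative to the 75th percentile of their own array. They compare the same probe between arrays and cannot be set against another gene's.

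FGF ligands bind receptor tyrosine kinases together with heparan sulfate on the cell surface, and the activated receptor drives the RAS-MAP kinase cascade. The cascade switches on its own brakes: Sprouty and Spred proteins act at RAS and RAF, and dual specificity phosphatases remove phosphate from ERK. In the testis, FGF2 is used with GDNF to keep spermatogonial stem cells in culture, and FGF9 acts in male sex determination of the fetal gonad.

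The 75th percentile of the signal ranged from 243 to 533 over the 8 arrays, 86.0% to 90.3% of spots were well above background and none was saturated. The groups did not overlap for Glis3, which was lower in Glis3KO2, with -1.09, -1.01, 0.57 and 0.60 in WT replicates 1 to 4 against -1.98, -2.18, -1.18 and -1.32 in Glis3KO2 replicates 1 to 4. The difference was -1.43 (SE 0.45, exact two-sided permutation p = 0.029, the smallest that 4 against 4 arrays allow), and whether the probe lies in the deleted part was not given. Thy1 was well above background on all 8 arrays, with -0.03 to 2.05 in WT and 1.36 to 2.46 in Glis3KO2. WT replicates 3 and 4 stood apart, at 69.1 and 60.0 on the first principal component (32.3% of the variance), where the other 6 arrays lay between -55.9 and 3.85. On the second component (20.1% of the variance) WT replicate 1 stood apart at 80.8, with all other arrays between -30.0 and 3.20. Replicates 1 and 3 of both genotypes shared slide 1 and replicates 2 and 4 slide 2, with WT at positions 1 and 2 and Glis3KO2 at positions 3 and 4 of each slide, so that position and genotype cannot be told apart. Markers of germ cells and of other testis cells were present together: 9 of 10 germ cell markers, 10 of 10 of interstitial stroma, 8 of 8 of peritubular smooth muscle and 8 of 8 of macrophages were kept. Macrophage markers had higher means in Glis3KO2 for 8 of 8 (list means of 0.21 to 1.94 in WT and 0.94 to 2.16 in Glis3KO2). Means were higher for 4 of 10 Sertoli cell, 1 of 5 measured Leydig cell, 4 of 6 endothelial and 4 of 5 T lymphocyte markers, none at an unadjusted p under 0.05.

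No FGF gene passed the test across all genes. The smallest adjusted p of any member was 0.697 (limma, Benjamini-Hochberg over 17513 genes), and no gene on the array passed at 0.05 (percent called 0, smallest adjusted p 0.067), while 1208 genes had an unadjusted p under 0.05. At that unadjusted limit, 2 of the 32 kept members stood out: Fgfr3, a receptor, was lower in Glis3KO2, and Spry1, an inhibitor, was higher. Over all genes, 4.75% were lower and 2.15% higher at the same limit, together 6.90%, and the members' share of 6.25% lay near it. With normexp background removal before the same scaling, 3 members were lower (Fgfr3, Fgf20 and Spry4) and 1 was higher (Spry1) at that limit, where the share of all genes was 8.78%. The groups did not separate fully for any member, against 2.6% of all genes whose Glis3KO2 values all lay below the WT values and 0.902% whose values all lay above. Of the kept members 18 were lower (56.25%) and 14 higher, where 59.2% of all genes were lower. The 14 include Fgf10 and Spred3, most of whose WT values are only a bound. The members' median difference was -0.10, beside -0.08 for all genes.

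Same-numbered arrays were read as pairs, which is an assumption that the replicate numbers alone do not establish. Fgf6, Fgf17, Fgf23, Fgfr3 and Fgfrl1 were lower in 4 of 4 pairs, and Fgf7 and Spry1 were higher in 4 of 4. Those 5 and 2 of 32 members stand beside 13.6% of all genes lower and 7.35% higher in every pair. A fit with the pairs as a block brought 3 members, Fgfr3, Fgf7 and Spry1, under the unadjusted limit, where 6.33% of all genes were lower and 4.39% higher. Adjusted p-values of these members in the blocked fit were 0.422, 0.422 and 0.433 (limma).

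**Figure D1:**
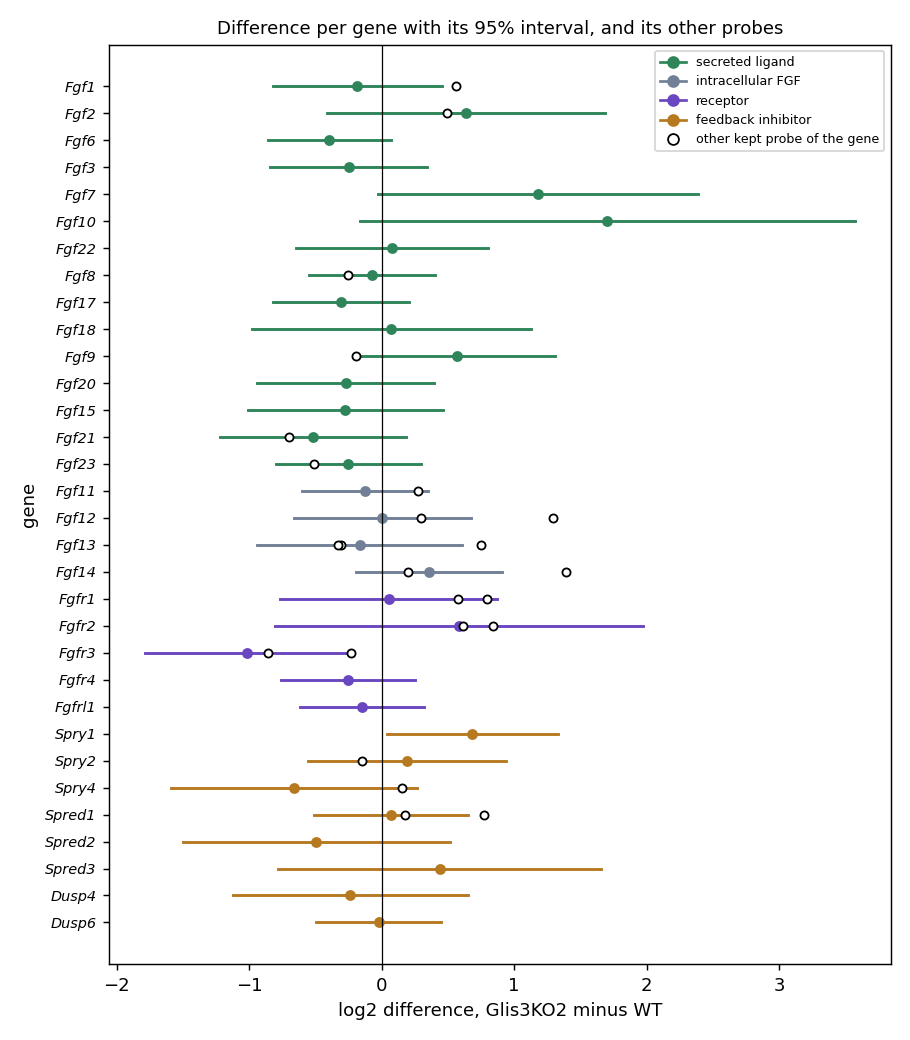
Log2 difference of each kept FGF gene, Glis3KO2 minus WT (x axis), with its 95% interval from limma; genes are rows (y axis), coloured by role, and open circles are a gene's other kept probes. Intervals exclude 0 for Fgfr3 (-1.79 to -0.24) and Spry1 (0.04 to 1.33) before adjustment over all genes, and several genes have probes on both sides of 0. The points of Fgf10 and Spred3 rest on 1 WT array above background, and 1 open circle of Fgf14 on 2.

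Promoter sequence of Fgfr3 and Spry1 is shown because these members met the unadjusted limit. Windows from 250 bases before to 50 bases after each annotated start were taken from RefSeq (GRCm38.p6), and 25 members had 32 of the 32851 windows. In the first Fgfr3 window, whose start lies on chromosome 5, the 250 bases before the start (chr5:33721474-33721723, plus strand) were 66.8% G or C.

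Fgfr3 upstream: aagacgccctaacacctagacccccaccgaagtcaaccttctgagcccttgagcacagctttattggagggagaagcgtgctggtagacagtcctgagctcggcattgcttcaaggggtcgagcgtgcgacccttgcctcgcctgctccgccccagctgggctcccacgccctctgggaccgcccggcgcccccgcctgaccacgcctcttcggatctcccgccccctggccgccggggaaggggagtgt

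The corresponding bases of Spry1 (chr3:37639697-37639946, plus strand) were 62.4% G or C, and the median over all windows was 52.4%.

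Spry1 upstream: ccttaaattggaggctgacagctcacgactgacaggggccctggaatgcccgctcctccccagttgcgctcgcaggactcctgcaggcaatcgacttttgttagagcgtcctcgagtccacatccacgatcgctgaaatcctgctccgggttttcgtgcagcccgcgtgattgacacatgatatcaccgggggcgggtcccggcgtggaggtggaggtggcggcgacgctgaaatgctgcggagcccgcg

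In all, 8 strings of letters were searched on both strands. TGGGGGGT, the core of the sequence that GLIS factors are known to bind, was in 501 of all windows (1.53%) and in 2 member windows, both of Fgfr3. Counted by gene, 483 of 27025 genes held it, and among the 25 members with a window only Fgfr3 did. One match lay on the minus strand at bases 19 to 26 after the start at the first Fgfr3 window (shown with its surroundings, chr5:33721731-33721760), and the other on the plus strand at bases 42 to 49 of a second Fgfr3 start (chr5:33722326-33722355). The 250 bases before that second start were 72.8% G or C, above the median of 52.4% over all windows. Capitals mark the match.

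Fgfr3 first start: gtggcgggagcACCCCCCAacccccgcccg

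Fgfr3 second start: caccggcgccggagccgggcgTGGGGGGTt

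The shorter GGGGGGT, which overlaps each of those matches, was in 5.17% of all windows and in 4 member windows, of Fgf21, Fgfr3 and Spred3. CCGGAAGT, which ETS factors downstream of ERK are known to bind, was in 3.89% of all windows and in 1 member window, that of Fgfrl1. Its overlapping parts CCGGAA and GGAAGT were in 14.9% and 23.8% of all windows and in 5 and 3 member windows. The AP-1 site TGACTCA was in 5.2% of all windows and in 1 member window, of Fgf12, and the cyclic AMP response element TGACGTCA in 1.79% and none. CACCC, a short stretch common near starts, was in 57.5% of all windows and in 18 of the 32 member windows. A match is a stretch of letters only, and binding was not measured in these samples.

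Among the secreted ligands, 15 of 17 on the array were kept, 9 with a lower and 6 with a higher mean in Glis3KO2. The 6 include Fgf10, most of whose WT values are only a bound. None of the ligands' differences reached the unadjusted limit. Apart from Fgf10, which is described below without a difference, they ran from -0.52 for Fgf21 to 1.18 for Fgf7. Fgf7 (keratinocyte growth factor), which stromal cells make and FGFR2 on epithelia receives, and its close relative Fgf10 were singled out after their values were seen. Fgf7 read -1.45, -2.41, -3.04 and -2.33 in WT replicates 1 to 4 and -0.66, -0.16, -2.77 and -0.92 in Glis3KO2 replicates 1 to 4. Replicates 1, 2 and 4 of Glis3KO2 were above every WT array, and replicate 3 lay among the WT values. The difference was 1.18 (SE 0.54, a 2.27-fold higher mean, 95% interval -0.03 to 2.39), with an unadjusted limma p of 0.054 and an exact two-sided permutation p of 0.11. It was 0.42 when background was removed with normexp, and 1.73 without Glis3KO2 replicate 3.

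Fgf10 was near the lower end of detection. Its signal cleared background in WT replicate 2 and in Glis3KO2 replicates 1, 2 and 3, so most WT values are only a bound. The values were -6.54, -4.00, -5.32 and -4.89 in WT and -2.03, -3.02, -2.73 and -6.15 in Glis3KO2. Glis3KO2 replicates 1, 2 and 3 were above every WT array and replicate 4 was below all WT arrays but replicate 1. Its probe was printed at 10 spots, and in Glis3KO2 replicates 1 to 3 all 10 were above background, while in Glis3KO2 replicate 4 none was. The SD between spots of an array was 0.06 to 0.62. The probe met the filter through the Glis3KO2 arrays, and because 3 WT arrays gave only a bound no difference is given for it.

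Markers of interstitial stroma had higher means in Glis3KO2, as Fgf7 did. Their mean was 1.02, 2.42, 0.45 and 0.55 in WT and 1.73, 3.39, 1.77 and 1.61 in Glis3KO2, with 10 of 10 markers higher, and the 8 peritubular smooth muscle markers were also all higher (means of 0.80 to 2.51 in WT and 1.27 to 3.27 in Glis3KO2). Of these markers, 9 of 10 and 8 of 8 were well above background on all 8 arrays. In RNA from sorted cells, more cells of a type and more RNA per cell cannot be told apart, and the part of the stromal markers in the Fgf7 and Fgf10 values was not tested. Within pairs, Fgf7 differed by 0.80, 2.26, 0.27 and 1.41 and the stromal mean by 0.71, 0.96, 1.32 and 1.06.

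**Figure D2:**
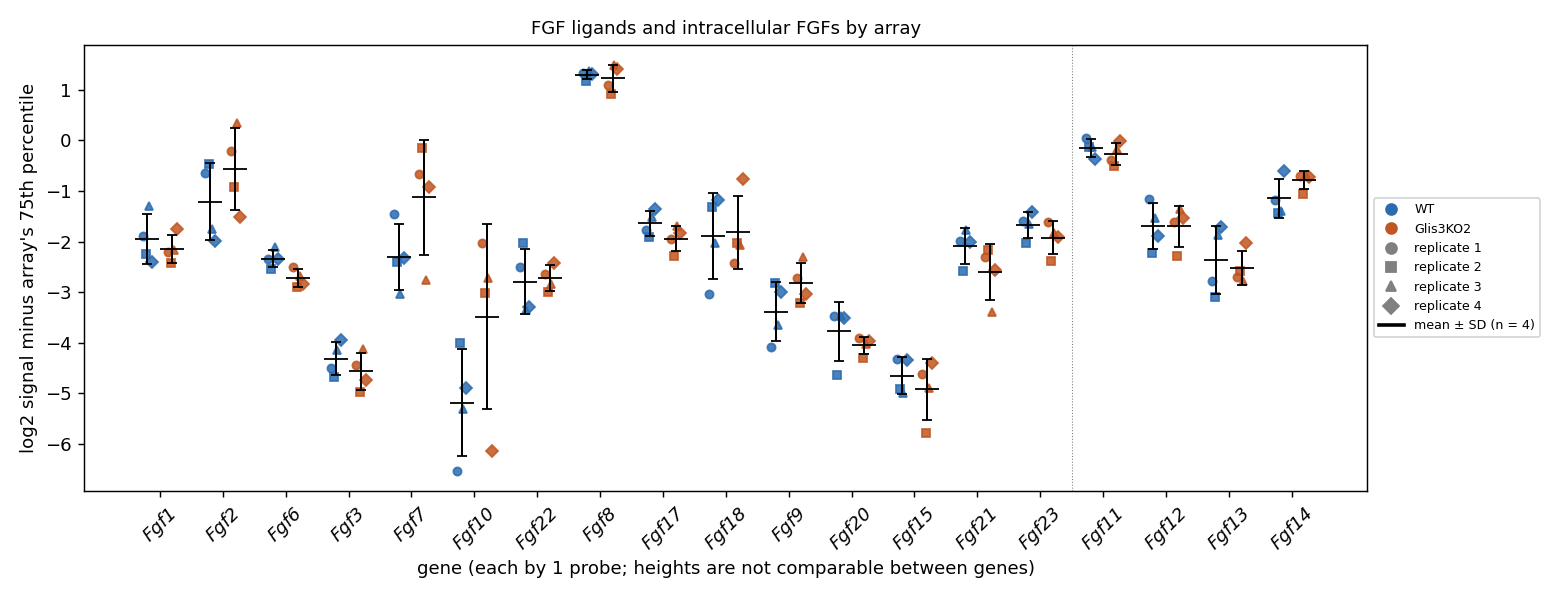
Log2 signal minus the 75th percentile of its array (y axis) for each kept Fgf gene (x axis) on every WT (blue) and Glis3KO2 (orange) array; marker shapes are replicate numbers, and bars are the mean ± SD of 4 arrays. The groups overlap for every gene; 3 of 4 Glis3KO2 arrays lie above WT for Fgf7 and Fgf10, and Fgf10, not above background on 3 WT arrays, spreads from -6.15 to -2.03 within Glis3KO2.

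Fgf2, the ligand of stem cell culture, read -0.64, -0.47, -1.74 and -1.99 in WT and -0.22, -0.91, 0.35 and -1.51 in Glis3KO2. WT replicates 3 and 4 were the lowest of all arrays, and Glis3KO2 replicate 3 was the highest. The difference of 0.64 (SE 0.47) lay within the spread between replicates. It was -0.01 within replicates 1 and 2 and 1.29 within replicates 3 and 4, and turned to -0.02 without WT replicates 3 and 4. A second Fgf2 probe, printed at 10 spots, was also higher, with an SD between spots of 0.07 to 0.20.

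Fgf8, a ligand of embryonic patterning, was about level in both groups. It read 1.34, 1.18, 1.37 and 1.32 in WT and 1.097, 0.92, 1.49 and 1.41 in Glis3KO2. The WT arrays lay inside the wider range of the Glis3KO2 arrays, and the 95% interval of the difference was -0.55 to 0.40. Its 10 spots per array had an SD of at most 0.13. Fgf17 and Fgf18, of the same subfamily, differed by -0.31 and 0.07.

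Fgf9 read -4.09, -2.83, -3.64 and -2.99 in WT and -2.73, -3.21, -2.30 and -3.03 in Glis3KO2. Glis3KO2 replicates 1 and 3 were above all WT arrays, and the others lay within the WT range. The difference of 0.57 (SE 0.33, exact two-sided permutation p = 0.20) was 1.35 on slide 1 and -0.21 on slide 2. A second Fgf9 probe gave -0.19, and normexp background removal gave -0.35, so its direction was not settled. Its relative Fgf20 differed by -0.27.

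None of the remaining ligands reached the unadjusted limit. Fgf1, the ligand that binds all FGF receptors, gave -0.18 on its main probe and was higher on its second. Fgf3 and Fgf22 of the FGF7 subfamily gave -0.25 and 0.08. Fgf6, of the FGF4 subfamily, was singled out after its values were seen. It read -2.34, -2.55, -2.12 and -2.34 in WT and -2.50, -2.89, -2.69 and -2.85 in Glis3KO2. The groups overlapped by 1 array each, and the difference of -0.39 was larger than the SD within WT (0.18) and within Glis3KO2 (0.18), with an exact two-sided permutation p of 0.057 and an adjusted limma p of 0.697. All 3 endocrine ligands, which act at a distance with Klotho proteins, had lower means, with differences of -0.52 for Fgf21, -0.27 for Fgf15 and -0.25 for Fgf23. Lower means were common, at 59.2% of all genes. Fgf15 was above background on 3 WT and 2 Glis3KO2 arrays, and turned to 0.0118 with quantile normalization of log2 signal. A second Fgf21 probe, singled out after its values were seen, read -4.75, -4.54, -3.73 and -3.60 in WT and -5.04, -4.98, -4.71 and -4.67 in Glis3KO2. It was lower in 4 of 4 pairs, with a difference of -0.70 (SE 0.30, unadjusted limma p = 0.043, adjusted p = 0.730, exact two-sided permutation p = 0.086), with WT replicate 1 among the Glis3KO2 values.

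Fgf16 and Fgf5 did not meet the filter. Fgf16 was well above background on 0 of 8 arrays, and Fgf5 on WT replicate 4 and Glis3KO2 replicates 2 and 3.

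Fgf11 to Fgf14 stay inside the cell and bind voltage-gated sodium channels instead of receptors. Their main probes gave -0.12, 0.01, -0.17 and 0.36 for Fgf11, Fgf12, Fgf13 and Fgf14, none at the unadjusted limit, and Fgf11 and Fgf13 had probes on both sides of 0. The other kept Fgf12 probes, both dimmer, gave 1.29 (SE 0.65) and 0.30 (SE 0.46), each short of the unadjusted limit. A dimmer Fgf14 probe, singled out after its values were seen, read -4.05, -4.34, -5.60 and -5.07 in WT and -2.04, -3.99, -3.48 and -3.97 in Glis3KO2. Every Glis3KO2 array was above every WT array on that probe. It was well above background on 2 WT and 4 Glis3KO2 arrays, so some WT values are only a bound. The Glis3KO2 arrays alone met the filter, and no difference is given for the probe. The 2 other Fgf14 probes gave 0.36 and 0.20.

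All 5 receptors were well above background on all 8 arrays. Fgfr3 was the receptor that differed most, and the only one at the unadjusted limit. In WT replicates 1 to 4 it read -0.92, 0.06, -0.44 and -0.26, and in Glis3KO2 replicates 1 to 4 -1.66, -0.79, -0.99 and -2.19. The Glis3KO2 arrays were below all WT arrays with 1 exception, replicate 2, which was above WT replicate 1. The WT mean was -0.39 ± 0.41 (SD, n = 4) and the Glis3KO2 mean -1.41 ± 0.64 (SD, n = 4). That is a 2.02-fold lower mean (log2 difference -1.02, SE 0.35, unadjusted limma p = 0.015, adjusted p = 0.697), and the exact two-sided permutation p was 0.057.

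Fgfr3 was lower within every numbered pair, with differences of -0.74, -0.84, -0.56 and -1.92. On slide 1 the difference was -0.65 and on slide 2 it was -1.38. A second probe for the gene read -1.03, -0.12, -0.64 and -0.39 in WT against -1.39, -1.01, -0.77 and -2.44 in Glis3KO2, a difference of -0.86 (unadjusted limma p = 0.044, adjusted p = 0.730, exact two-sided permutation p = 0.086). The third, dimmer Fgfr3 probe gave -0.23 (SE 0.26) and was lower in 3 of 4 pairs. Leaving out any 1 array kept the main probe's difference between -1.22 and -0.76, and it stayed under the unadjusted limit each time. Without WT replicates 3 and 4 it was -0.97, and no longer met that limit.

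Germ cell markers were lower as well. Their mean was -0.03, 0.30, 1.34 and 1.83 in WT and -0.09, -0.42, 0.42 and 0.33 in Glis3KO2, with 9 of 9 measured markers lower, and 10 of 10 markers of undifferentiated spermatogonia were lower (means of -1.52 to -0.50 in WT and -1.84 to -1.59 in Glis3KO2). On all 8 arrays, 9 of 9 and 8 of 10 of these markers were well above background. In WT, replicates 1 and 2 had lower germ cell marker means than replicates 3 and 4, while Fgfr3 averaged -0.43 in replicates 1 and 2 and -0.35 in replicates 3 and 4. Within pairs 1 to 4 the germ cell marker mean differed by -0.06, -0.71, -0.92 and -1.50, and Fgfr3 by the values above. The part of germ cell content in the Fgfr3 value was not tested.

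**Figure D3:**
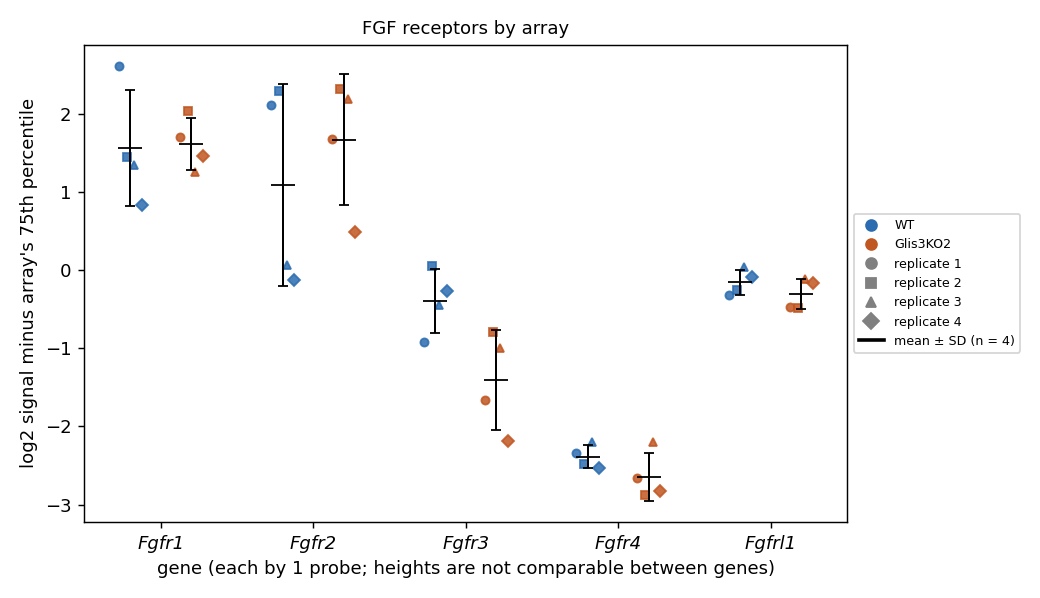
Log2 signal minus the 75th percentile of its array (y axis) of the 5 FGF receptor genes (x axis) on every array, with WT in blue and Glis3KO2 in orange; shapes are replicate numbers and bars the mean ± SD of 4 arrays. Fgfr3 has the lower Glis3KO2 values (-2.19 to -0.79, against -0.92 to 0.06 in WT), and Fgfr2 is split within WT on the probe shown.

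Fgfr2, whose splice forms receive FGF7 and FGF10 or FGF2 and FGF9, read 2.12, 2.29, 0.07 and -0.12 in WT and 1.68, 2.33, 2.20 and 0.50 in Glis3KO2. On this main probe WT replicates 1 and 2 were as high as most Glis3KO2 arrays, and WT replicates 3 and 4 were below all of them. The difference of 0.58 (SE 0.62) was well within this spread: it was -0.20 within replicates 1 and 2, 1.37 within replicates 3 and 4, and turned to -0.53 without WT replicates 3 and 4. The 2 other, dimmer Fgfr2 probes gave 0.84 and 0.61, and 1.18 and 0.58 within replicates 1 and 2. Their WT arrays were not split in this way, at -3.69, -3.15, -2.89 and -3.35 and at -2.51, -1.64, -2.29 and -2.81.

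Fgfr1 read 2.61, 1.46, 1.35 and 0.84 in WT and 1.71, 2.04, 1.26 and 1.46 in Glis3KO2. WT replicate 1 was the highest array and WT replicate 4 the lowest, with Glis3KO2 between them. The difference was 0.05 (95% interval -0.77 to 0.87), and it turned to -0.42 without WT replicates 3 and 4. The 2 dimmer Fgfr1 probes gave 0.79 and 0.58, each higher in 3 of 4 pairs and short of the unadjusted limit.

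Fgfr4 read -2.34, -2.48, -2.20 and -2.53 in WT and -2.66, -2.88, -2.20 and -2.83 in Glis3KO2. Replicates 1, 2 and 4 of Glis3KO2 were below every WT array, and replicate 3 was level with its WT partner. The difference was -0.25 (95% interval -0.76 to 0.25). Fgfrl1, a receptor without a kinase domain, read -0.32, -0.25, 0.04 and -0.09 in WT and -0.46, -0.48, -0.11 and -0.16 in Glis3KO2. It was lower in 4 of 4 pairs, but the mean difference of -0.15 was smaller than the SD within either group (0.16 and 0.20).

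Of the 9 feedback inhibitors, 8 were kept and Spry3 was not, being well above background on WT replicates 1 and 2 and Glis3KO2 replicate 4. Means were lower for 4 and higher for 4. The higher ones include Spred3, most of whose WT values are only a bound. Spry1, which restrains receptor tyrosine kinases including the GDNF receptor RET in the kidney, read 0.30, 0.85, -0.23 and -0.33 in WT and 0.90, 1.06, 0.60 and 0.76 in Glis3KO2. The Glis3KO2 arrays were close together and above WT replicates 1, 3 and 4, whereas WT replicate 2 lay among them. The WT mean was 0.15 ± 0.54 (SD, n = 4) and the Glis3KO2 mean 0.83 ± 0.19 (SD, n = 4). The mean was 1.61-fold higher (log2 difference 0.68, SE 0.29, unadjusted limma p = 0.040, adjusted p = 0.697), with an exact two-sided permutation p of 0.086.

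Spry1 was higher in each pair, by 0.61, 0.21, 0.84 and 1.09. The size depended on WT replicates 3 and 4. It was 0.41 within replicates 1 and 2, 0.96 within replicates 3 and 4, and 0.26 without WT replicates 3 and 4. Leaving out WT replicate 3 or 4, or Glis3KO2 replicate 1, 2 or 4, also left it short of the unadjusted limit, with differences of 0.56, 0.53, 0.66, 0.61 and 0.71. In WT the stromal marker mean was higher in replicate 2 than in the other 3 arrays, as Spry1 was, and the part of those markers in the Spry1 value was not tested.

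**Figure D4:**
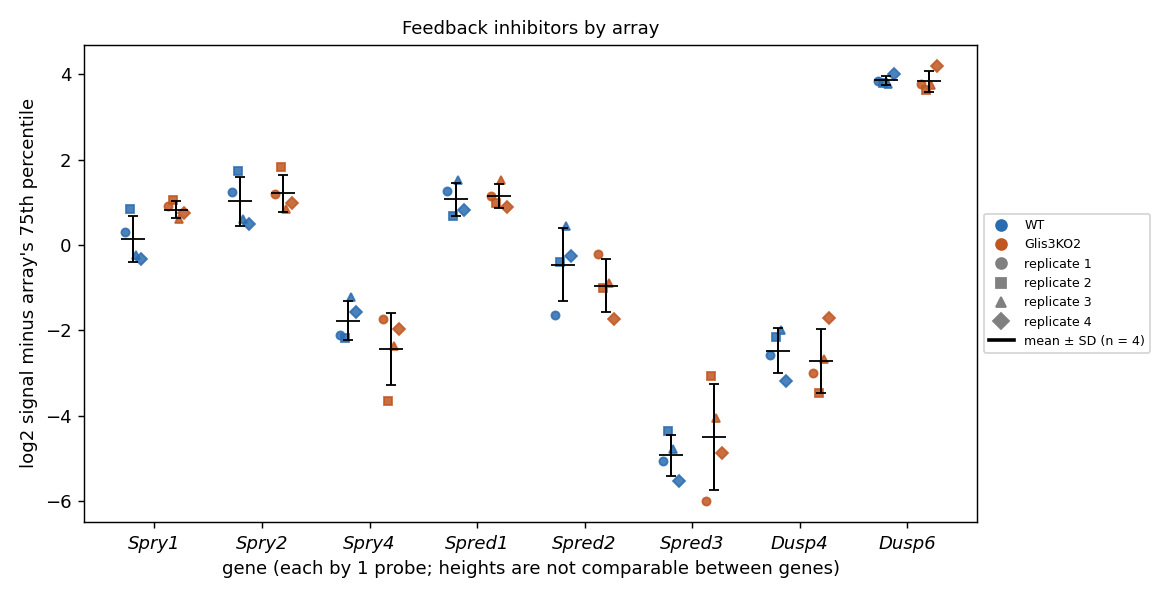
Log2 signal minus the 75th percentile of its array (y axis) of the 8 kept feedback inhibitors (x axis) on every WT (blue) and Glis3KO2 (orange) array; shapes are replicate numbers and bars the mean ± SD of 4 arrays. Spry1 is tight in Glis3KO2 (0.60 to 1.06) and wide in WT (-0.33 to 0.85), and Dusp6 is level in both groups.

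Spry2, the closest relative of Spry1 in this role, read 1.23, 1.74, 0.61 and 0.49 in WT and 1.18, 1.82, 0.85 and 0.98 in Glis3KO2. As for Spry1, WT replicates 3 and 4 were the lowest arrays, but the groups shared the rest of their range. The difference was 0.19 (95% interval -0.56 to 0.94), it turned to -0.28 without WT replicates 3 and 4, and a second Spry2 probe had the opposite sign.

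Spry4 had the lowest mean relative to WT among the inhibitors. It read -2.11, -2.17, -1.22 and -1.57 in WT and -1.74, -3.65, -2.36 and -1.98 in Glis3KO2. The groups overlapped, with Glis3KO2 replicate 2 far below the rest. The difference was -0.66 (SE 0.42, exact two-sided permutation p = 0.23). It was -0.26 without Glis3KO2 replicate 2. A second, dimmer Spry4 probe gave 0.16 (SE 0.86) and was lower in 3 of 4 pairs. That probe was well above background on 3 WT and 3 Glis3KO2 arrays.

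Spred1, which holds back RAF activation, read 1.27, 0.68, 1.51 and 0.81 in WT and 1.15, 0.99, 1.53 and 0.89 in Glis3KO2. Both groups covered the same range, and the interval of the difference was -0.51 to 0.66. A dimmer Spred1 probe, singled out after its values were seen, read -3.08, -2.63, -2.30 and -2.18 in WT and -1.28, -1.92, -2.15 and -1.75 in Glis3KO2. On it the groups did not overlap, with a difference of 0.77 (SE 0.28, unadjusted limma p = 0.022, adjusted p = 0.730, exact two-sided permutation p = 0.029). The third Spred1 probe gave 0.18.

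Spred2 read -1.63, -0.39, 0.44 and -0.26 in WT and -0.20, -0.9996, -0.88 and -1.72 in Glis3KO2. Pair 1 went up and the other 3 went down, and the difference of -0.49 (SE 0.45) turned to 0.05 without WT replicates 3 and 4. Spred3 was well above background on 1 WT and 3 Glis3KO2 arrays, so that most WT values are only a bound and no difference is given.

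Dusp6, a cytoplasmic ERK phosphatase and a classic target of FGF signalling, was level in both groups. It read 3.83, 3.80, 3.76 and 4.01 in WT and 3.77, 3.63, 3.73 and 4.18 in Glis3KO2. The groups lay over each other, and the difference of -0.02 had a 95% interval of -0.49 to 0.45. Dusp4, a nuclear ERK phosphatase, read -2.57, -2.16, -1.997 and -3.17 in WT and -3.00, -3.46, -2.66 and -1.71 in Glis3KO2. Pairs 1 to 3 were lower and pair 4 was higher by 1.46, so that the mean difference of -0.23 was small beside an SD of 0.53 and 0.74.

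Each probe was also tested on its own. Of the 56 kept probes, 3 were lower (both brighter Fgfr3 probes and the second Fgf21 probe) and 3 higher (Spry1 and the dimmer Spred1 and Fgf14 probes) at an unadjusted p under 0.05, where 4.1% of 25970 probes were lower and 2.46% higher. None passed after adjustment. Groups failed to overlap for 0 probes in the lower and 2 in the higher direction, against 2.32% and 1.1% of all probes. The dimmer Fgf14 probe is among both the 3 higher and the 2 without overlap, and some of its WT values are only a bound. Among the 16 members with several kept probes, the probes of 6 (Fgf1, Fgf9, Fgf11, Fgf13, Spry2 and Spry4) differed in sign. The 95% interval lay within 1 log2 unit on either side of 0 for 18 of the 32 members, and for the others the interval reached beyond it.

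**Figure D5:**
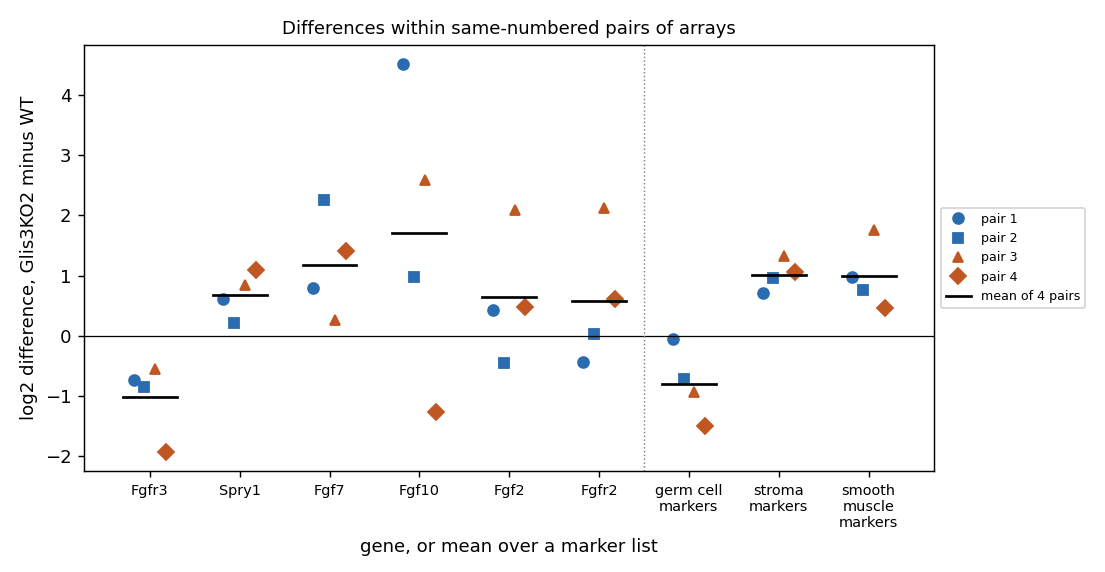
Log2 difference, Glis3KO2 minus WT (y axis), within each same-numbered pair of arrays for 6 FGF genes and for the mean of 3 marker lists (x axis); shapes are pair numbers and bars the mean of 4 pairs. Fgfr3 is below 0 in every pair (-1.92 to -0.56) and Spry1 and Fgf7 above 0, while Fgf2 and Fgfr2 change sign between pairs, as does Fgf10, whose WT arrays were mostly not above background.

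The other genes of the pathway did not pass after adjustment either, and 6 of the 72 measured (8.33%) met the unadjusted limit, near the 6.90% of all genes. Among 15 measured coreceptors and FGF-binding proteins of 16 listed, 8 were higher and 7 lower. Flrt2, a membrane protein of the FLRT family that binds FGF receptors, was higher by 1.42 (SE 0.44) and Gpc1, a heparan sulfate proteoglycan, by 0.62 (SE 0.28), each in 4 of 4 pairs, and Flrt3 gave 1.23 (SE 0.65). The list's median was 0.15. For this list and those below, 13.6% of all genes were lower and 7.35% higher in 4 of 4 pairs.

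Heparan sulfate enzymes gave 7 higher and 5 lower of 12, none at the unadjusted limit. The smallest p-values were those of the sulfotransferase Hs6st1 (0.42), the epimerase Glce (-0.48) and the polymerase subunit Ext2 (0.37). Of the 22 adaptors and RAS-MAP kinase genes, 12 were higher and 10 lower with a median of 0.03. Hras differed by -1.17 (SE 0.42) and Braf by 0.67 (SE 0.27), each the same way in 4 of 4 pairs. For 1 of the 22, the adaptor Gab1 (0.49), the groups did not overlap, beside 0.902% of all genes in that direction.

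Of 9 further inhibitors measured among 12 listed, 8 were lower and 1 higher with a median of -0.20, none at the unadjusted limit, led by Dusp14 (-0.61), Dusp9 (-0.74) and Dusp2 (0.58). Over all genes, 59.2% were lower. Transcriptional targets of FGF and ERK signalling were mixed, with 8 higher and 6 lower among 14 measured of 16. Phlda1 was higher by 0.99 (SE 0.34) in 4 of 4 pairs, the early growth response gene Egr2 differed by -0.98 (SE 0.42) and was lower in 3 of 4, and Etv5, an ETS factor of spermatogonial stem cells, gave -0.79 (SE 0.40).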

How the data were processed

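Each of the 8 samples was hybridised to a 1-colour Agilent array. Per the file headers, the authors extracted spot intensities with Agilent Feature Extraction 12.0.0.7 on a design annotated to mm9, and the deposited value table equals the processed signal on 100% of the 43379 spots. From these deposited intensities, log2 of the processed signal minus the array's 75th percentile was computed here, without control and outlier-flagged spots. Spots of a probe were averaged, and RefSeq accessions named 28223 of 41174 probes. Where a gene had several kept probes, the one brightest on average over the 8 arrays was used. Genotypes were compared with limma 3.58.1 (R 4.3.3), with Benjamini-Hochberg adjustment over 17513 genes at a threshold of 0.05; the script was tested on simulated data. All members are named. Values by array are given for receptors, major ligands and inhibitors and members at an unadjusted p under 0.05, and the 3 genes of smallest p are named from each pathway list. Fgf6, Fgf7, Fgf10 and some single probes were added after their values were seen. Members, pathway lists and marker lists were chosen with earlier results of these data known.

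Replicate numbers in the sample titles were taken as pairs. Same-numbered arrays deviated together from their group means (r of 0.16, 0.34, 0.18 and 0.13 over 17507 genes). Differently numbered arrays were not compared, so these values cannot establish a pairing. Counts by pair and the blocked fit rest on it as an assumption. The alternatives changed normalization, background correction, the filter, the probe rule, blocks, weights and the arrays used.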

Additional observations from a re-analysis of the deposited data

Results flagged for a closer look

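Both groups of 4 arrays were searched for an array far from the rest in each of 49 named genes. Of those 98 groups, 2 held one, and chance gives about 1 in 20. Fgf20, a ligand of the FGF9 subfamily, read -4.65 in WT replicate 2, where the other WT arrays lay between -3.52 and -3.47. Fgf14, an intracellular FGF, read -1.05 in Glis3KO2 replicate 2, below -0.72 to -0.68 in the others.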

How the results depend on the processing

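Of 977 values of single genes under an alternative, 921 kept their direction and 56 reversed, and the cause of the reversals was not tested. Many of the 921 could not reverse. Blocks and the intensity trend leave a difference unchanged in this balanced design, as do filters and probe rules that keep the same probe. The count therefore overstates how far directions held. Fgfr3, Spry1 and Fgf7 kept their direction under every alternative run. No gene passed the adjusted threshold except 1 with quantile normalization of log2 signal, where 1 FGF member had groups that did not overlap. With normexp and the 75th percentile, 4 members met the unadjusted limit, 2 did not overlap and the members' median was -0.42, beside a median of -0.23 for all genes. The limit was met by 4 members with the mean over the probes of a gene (1 without overlap), by 6 probes with each probe on its own (2 without overlap), by 4 members with array weights and by 0 without WT replicates 3 and 4 (1 without overlap). With the replicate block, 3 members met it, Fgf7 having joined. The share of all genes at the same limit moved too: 8.78% with normexp, 7.21% with the mean over probes, 6.56% by probe, 13.6% with array weights, 4.397% without WT replicates 3 and 4 and 10.7% with the replicate block. Within replicates 3 and 4 the members' median was 0.087. Leaving out each array in turn gave 1 to 4 members at the limit: 4 without WT replicate 1 or 2, and 1, which was Fgfr3, without WT replicate 3 or Glis3KO2 replicate 1 or 2. The share of all genes was 8.31% and 13.8% without WT replicate 1 and 2, and 3.79%, 5.77% and 4.99% without the latter 3. Members without overlap numbered 0 to 4, with 4 (Fgf6, Fgf20, Fgf21 and Spry1) when WT replicate 2 was left out. Fewer arrays make a lack of overlap easier to meet. The share of all genes without overlap was not counted under the alternatives, except by probe (2.32% lower and 1.1% higher). Counts without overlap in this section are therefore not read as results about the members.

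Differences that reversed with normexp and the 75th percentile were Fgf22 at -0.48, Fgf8 at 0.12, Fgf18 at -0.23, Fgf9 at -0.35, Fgf12 at -0.36 and Dusp6 at 0.23. Fgf10 and Spred3, given no difference above, changed sign there too. With normexp and quantile normalization the reversed differences were Fgf22 at -0.028, Fgfr1 at -0.000845 and Dusp6 at 0.0395, and with quantile normalization of log2 signal Fgf15 at 0.0118 and Dusp6 at 0.0108. The mean over probes reversed Fgf1 to 0.19 and Fgf11 to 0.0758, and array weights reversed Fgf18 to -0.13. Without WT replicates 3 and 4, reversed values were Fgf2 at -0.0182, Fgf3 at 0.0207, Fgf22 at -0.45, Fgf20 at 0.00897, Fgf12 at -0.00693, Fgf13 at 0.41, Fgfr1 at -0.42, Fgfr2 at -0.53, Spry2 at -0.28, Spred2 at 0.0547 and Dusp6 at 0.0127. The pathway genes Ext2 at -0.027, Dusp9 at 0.35 and Dusp2 at -0.20 reversed there too.

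Leaving out 1 array at a time crossed 0 for Fgf1 (-0.33 to 0.0385), Fgf22 (-0.11 to 0.33), Fgf8 (-0.16 to 0.0279), Fgf18 (-0.31 to 0.31), Fgf15 (-0.45 to 0.0116), Fgf12 (-0.17 to 0.20) and Fgf13 (-0.41 to 0.0518). It also did for Fgfr1 (-0.19 to 0.40), Spry2 (-0.0111 to 0.43), Spred1 (-0.0583 to 0.22), Spred3 (-0.0374 to 0.93), Dusp4 (-0.57 to 0.0165) and Dusp6 (-0.14 to 0.0457). With 4 arrays a group, the 95% interval of a typical member reached 0.71 on either side of its value.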
